A study of Mus musculus with 199 samples.

Results

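The comparison is between 33 libraries, each made from 10 KP1 cells captured from nude liver colonies, and 35 pool-and-split control libraries of the same kind of colony, 68 of the 199 libraries of the series. The members were chosen by their titles alone, and every library with either title was used. KP1 is a mouse small-cell lung cancer line labelled Rb1-/-Trp53-/-, and both groups carry this genotype. The hosts were nude mice, which lack a thymus and are immunocompromised. Tissue was cryosectioned at 8 µm, cells were isolated by laser capture microdissection, and poly(A) RNA was reverse transcribed and amplified by poly(A) PCR. A pool-and-split library is a split of pooled captured material of the same size as a capture. Pools of this kind serve as a measure of the noise of amplification. The labels give no number of animals, colonies or pools, so differences between pools may be part of the spread between splits, and every p-value measures only the spread between these libraries.

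Liver tissue brings its own transcripts into such captures. Hepatocytes secrete most plasma proteins, among them albumin, the haemoglobin-binding haptoglobin, the haem-binding hemopexin and complement C3. Red blood cells carry globin messenger RNA, and sinusoids are lined by endothelial cells, stellate cells and Kupffer cells, the resident macrophages. Small-cell lung cancer cells express a neuroendocrine programme, and they divide rapidly after loss of Rb1, which restrains entry into S phase.

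Captures held 718208 to 4239792 gene counts and pools 956772 to 4004888. Spike-in (ERCC) transcripts took 2.51% ± 5.48 of counts in captures and 7.29% ± 6.52 in pools (SD, n = 33 and 35, adjusted permutation p = 0.000183, two-sided). At a common depth 8308 ± 1195 genes were detected per capture and 7035 ± 754 per pool (adjusted permutation p = 5e-05). The median Spearman correlation of a library with the rest of its group was 0.558 ± 0.070 in captures and 0.502 ± 0.029 in pools (adjusted permutation p = 7.5e-05). Capture 30 and pools 21, 22 and 25 stood apart with at least 20% ERCC counts. At least 5% was reached by 3 captures and 24 pools. The share of spike-in counts therefore moved with the groups, and its part in the results below was not tested except where a value is given. Counts of Rb1 ranged from 0 to 178 CPM in captures (median 13.2) and from 0 to 101 CPM in pools (median 1.55), and those of Trp53 from 0 to 73.2 CPM and from 0 to 60.8 CPM. The labels do not state the deleted exons, so these values do not check the genotype.

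For most genes the spread between captures was not larger than that between splits of a pool, with a difference above 0 in 4012 of 9397 genes tested. The spread of a gene was the average distance of its libraries, on the log2(CPM + 1) scale, from the median library of their group, where CPM is a count scaled to the library's total of gene counts. Its median over the 9397 genes that averaged 5 CPM or more was 1.45 in captures and 1.47 in pools. The median difference was -0.08. With the ERCC share as a covariate its sign turned, to 0.24, and limma gave 1363 genes more and 89 less spread at an unadjusted p under 0.05, beside 585 and 773 without the covariate. Against this background, 51 genes (0.543%) were more spread in captures and 17 (0.181%) were less spread (limma, Benjamini-Hochberg adjusted p under 0.05).

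Most of the 51 genes were seldom detected in pools. In 41 of them the median pool had 0 counts, and the 51 genes had counts in a median of 22 captures and of 9 pools. Fam129b showed this pattern. Its captures ranged from 0 to 231 CPM with a median of 4.70 and its pools from 0 to 23.8 CPM with a median of 0. Thus 24 captures and 8 pools had counts, and its spread was 1.77 ± 0.30 (SE) larger in captures (limma adjusted p = 0.00102). Zfx, an X-linked zinc finger transcription factor, had counts in 25 captures and 8 pools, and Acadl, a mitochondrial fatty acid dehydrogenase, in 22 and 7. Both gained 1.40 ± 0.25 in spread, with limma adjusted p-values of 0.00144 and 0.00159. The next 9 genes by adjusted p were Ccdc58, Chpf2, Plagl2, Cklf, Pus3, Lifr, Fam103a1, Ccnh and Ndufaf6. Their spread was 1.18 to 1.94 larger in captures, and all but Lifr were at 0 in the median pool. Lifr, the receptor for leukaemia inhibitory factor, reached 61.4 CPM in captures and 10.2 CPM in pools, and 10 captures lay above the highest pool.

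By contrast, 6 of the 51, C3, Hp, Cdk15, Mylk4, Gm15807 and Gm7416, had counts in 35 of 35 pools. Of these all but Hp were chosen after their values were seen. C3 and Hp are hepatocyte products, and their levels were weakly correlated with the spike-in share across captures, with a Spearman rho of 0.11 and -0.18. The remaining 4 were correlated with the spike-in share across captures, with rho from 0.64 to 0.66, beside a median of -0.28 over all genes tested.

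The 17 genes less spread in captures had counts in nearly all libraries, a median of 33 captures and of 33 pools. Their median spread was 1.05 in captures and 2.34 in pools. Twnk, the helicase of mitochondrial DNA replication, ranged from 3.37 to 154 CPM in captures with a median of 73.0. Its pools ranged from 0 to 977 CPM with a median of 60.4, so the captures fell inside the range of the pools, and its spread was 1.05 in captures and 2.55 in pools, with a standard error of the difference of 0.31 (limma adjusted p = 0.00834). Cd320, the transcobalamin receptor, Paics of purine synthesis, Aes, a Groucho-family corepressor, the phosphatidylinositol transfer protein Pitpna and Polr1c, a subunit of RNA polymerases I and III, were the next 5. Their differences ran from -1.49 to -0.84.

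Both counts depended on the libraries and on low values. With libraries of at least 5% ERCC left out, 30 captures and 11 pools remained and limma called 0 genes in either direction, with 330 and 388 genes at an unadjusted p under 0.05. With a pseudocount of 5 the counts were 6 and 2. With each deviation divided by the trend of spread on level they were 510 and 612, and 14 of the 51 and 17 of the 17 were shared. Hp and C3 were among those shared (limma adjusted p = 0.00133 and 0.000493), while the differences of Zfx and Acadl turned to -0.24 and -0.16. The count of 17 became 51 without capture 32 and 26 without capture 30. It became 10 without capture 8, 11 without capture 13, 7 without capture 16, 11 without capture 29, 10 without pool 21 and 11 without pool 22.

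**Figure D1:**
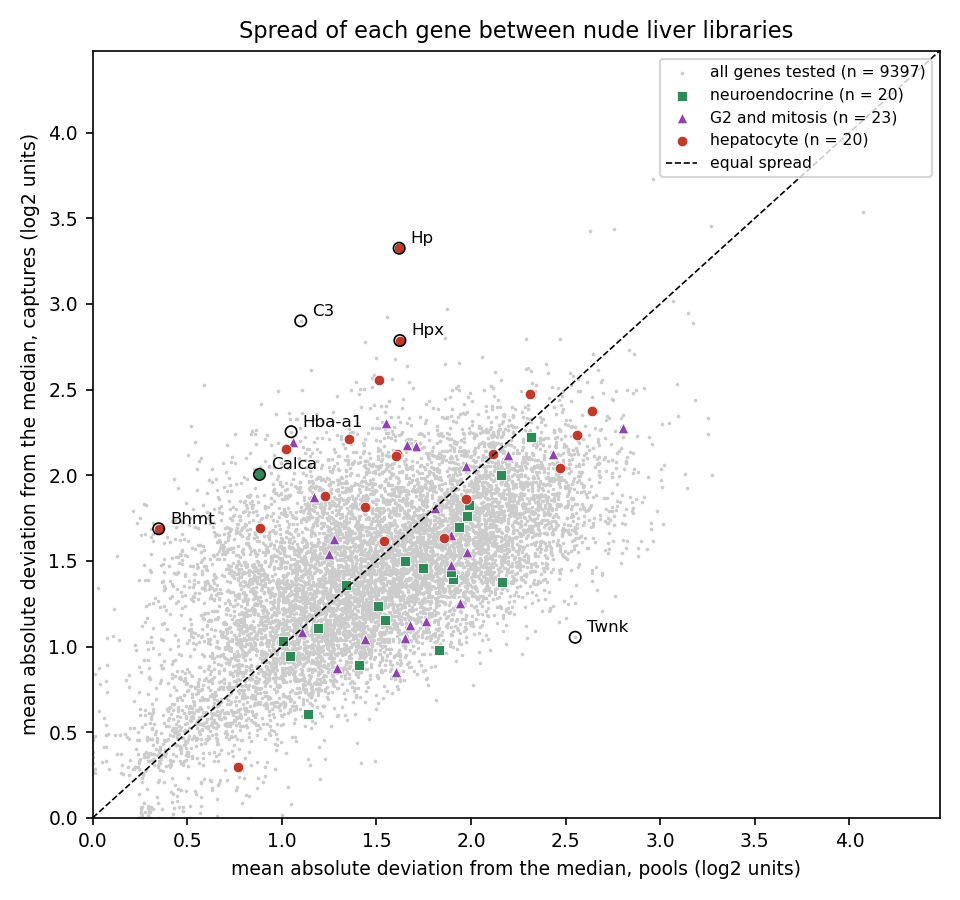
Spread of 9397 genes between the 35 pools (horizontal axis) and between the 33 captures (vertical axis), as the average distance from the median library on the log2(CPM + 1) scale. Grey points are all genes, coloured symbols are list members, circled genes are named in the text, and the dashed line marks equal spread; Hp, C3 and Hpx lie well above it and Twnk below it.

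Some hepatocyte transcripts differed more from capture to capture than from pool to pool. Of 29 listed genes, 20 passed the level filter of the spread test, 2 of these (Hp and Bhmt) were more spread in captures and 0 were less spread, beside 0.543% and 0.181% of all genes. The median difference of the 20 was 0.44, beside -0.08 over all genes. Hp, which encodes haptoglobin (chromosome 8, 109575128 to 109579172 on GRCm38), ranged from 0 to 1423 CPM in captures with a median of 9.53. In pools it ranged from 0.85 to 1571 CPM with a median of 114. It had 0 counts in 8 captures and in none of the pools, and 11 captures lay below the lowest pool. Its spread was 3.32 in captures and 1.62 in pools, a difference of 1.70 ± 0.41 (limma adjusted p = 0.025).

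C3, the central component of the complement cascade (chromosome 17, 57203970 to 57228136), is not a member of the list and was chosen after its values were seen. It ranged from 0 to 2362 CPM in captures with a median of 105 and from 8.44 to 923 CPM in pools with a median of 195. Captures lay on both sides of the pools, 5 above the highest and 7 below the lowest. The spread was larger by 1.80 ± 0.41 in captures (limma adjusted p = 0.0159). Bhmt, a hepatocyte enzyme that remethylates homocysteine, had counts in 20 captures, up to 201 CPM, and in 8 pools, up to 24.0 CPM. Its spread was larger by 1.34 ± 0.32 in captures (limma adjusted p = 0.0235), and -0.082 with deviations divided by the trend of spread on level. Without the libraries of at least 5% ERCC the differences were 1.56 for Hp, 1.12 for C3 and 1.28 for Bhmt, and none of the 3 passed the adjustment (limma adjusted p = 0.554, 0.689 and 0.494). With the ERCC share as a covariate Hp and C3 passed it and Bhmt did not (limma adjusted p = 0.0106, 0.00488 and 0.215).

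Hpx, which encodes hemopexin (chromosome 7, 105591613 to 105600137), ranged from 0 to 2318 CPM in captures with a median of 46.3 and from 0 to 1762 CPM in pools with a median of 279. It was at 0 in 5 captures and 1 pool. Its difference in spread of 1.16 ± 0.46 did not pass the adjustment (limma adjusted p = 0.225). Albumin (Alb, chromosome 5, 90460897 to 90476602) ranged from 0 to 1336 CPM in captures with a median of 274 and from 0 to 3819 CPM in pools with a median of 170. The captures fell inside the range of the pools, and the spread was 1.63 in captures and 1.85 in pools. Transferrin (Trf) had counts in all 68 libraries, with a median of 129 CPM in captures and 119 CPM in pools. Fgb, Gc, Fabp1 and Vtn had differences in spread of 1.13, 1.04, 0.86 and 0.80, none of which passed. The apolipoprotein genes Apoa1, Apoa2 and Apoc3 had differences of -0.11, 0.01 and -0.32.

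**Figure D2:**
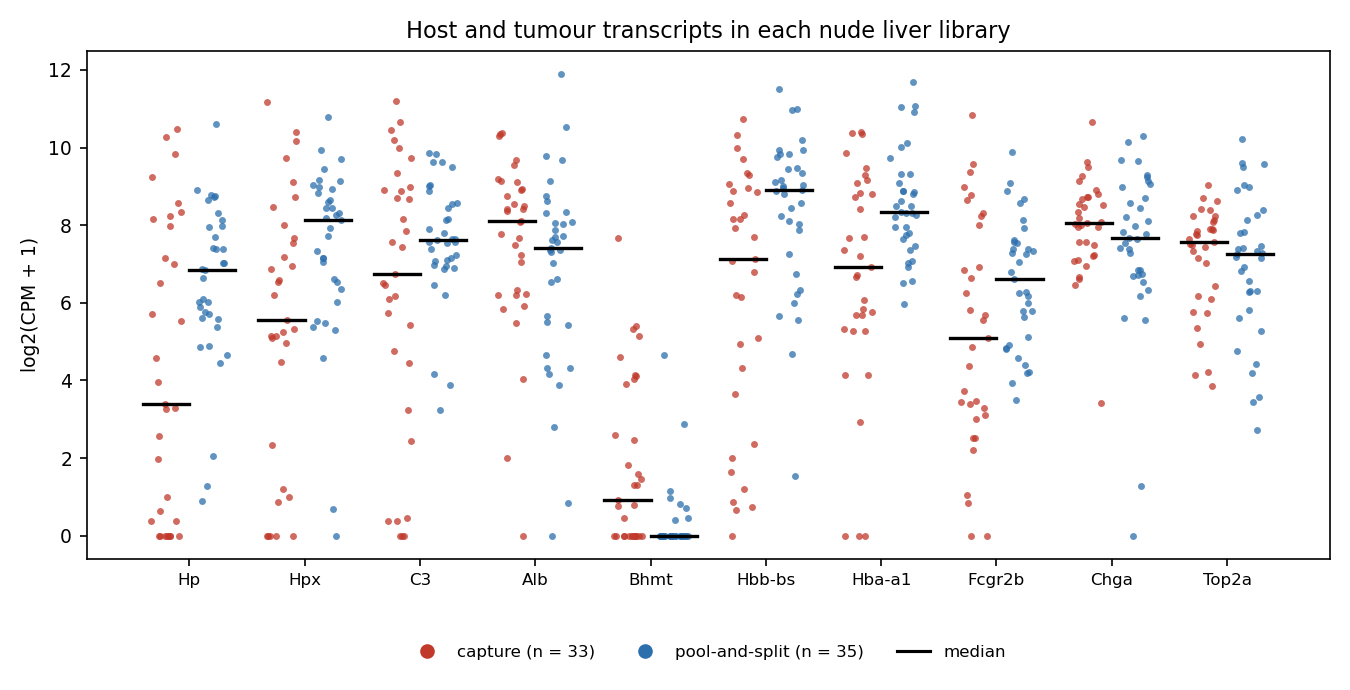
Level of 10 transcripts, as log2(CPM + 1), in each of 33 captures (red) and 35 pools (blue), with the median as a black bar. Hp, Hpx and C3 reach 0 in 8, 5 and 3 captures while Hp and C3 are present in every pool; the spread of Chga is 0.89 in captures and 1.41 in pools, a difference that did not pass the test.

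Summed over the list, hepatocyte transcripts also ranged more widely in captures. The summed level of the 29 hepatocyte genes ran from 125 to 7224 CPM in captures with a median of 1179, and from 287 to 4169 CPM in pools with a median of 1661. The SD of the log2 sum was 1.38 in captures and 0.80 in pools. Captures 7, 33 and 35 lay above the highest pool and captures 28 and 29 below the lowest. In a library of 10 cells, fewer hepatocytes and less RNA from each cannot be told apart. Cultured KP1 spheroids, which hold no liver, gave the background of these genes. Alb had counts in 0 of 28 spheroid captures and 1 of 20 spheroid pools, where it reached 1.06 CPM. C3 and Ambp had counts in 0 of 28 spheroid captures and 0 of 20 pools, and Hp in 1 spheroid capture, at 15.6 CPM. Trf was not near 0 there, with counts in 7 spheroid captures, up to 63.2 CPM, and in 7 spheroid pools, up to 24.5 CPM. In capture 30 Trf made up 1149 of the 1179 CPM of the hepatocyte sum.

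Hepatocyte genes were more closely correlated with each other across captures than across pools. Over the 190 pairs of the 20 tested hepatocyte genes the median Spearman rho was 0.32 in captures and 0.10 in pools. Over all pairs of the 9397 genes the medians were 0.08 and 0.03. With the ERCC share held constant, the median over hepatocyte pairs was 0.29 and 0.07. Among 8 secreted hepatocyte proteins, Hp, Hpx, C3, Ambp, Alb, Fetub, Apoa1 and Ahsg, chosen after their values were seen, the 28 pairs had rho from 0.27 to 0.83 in captures with a median of 0.57. In pools the same pairs had rho from -0.26 to 0.37 with a median of 0.03. The highest pair was Hp with Hpx, at 0.83 in captures and 0.00 in pools. These correlations are descriptions, and the pairs share libraries and depth.

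Alb was correlated above 0.5 with 51 genes in captures and with 5 in pools, and none of the genes was shared. The 5 genes most like it over the 33 captures, among those with a mean of at least 10 CPM, were Hpx (rho 0.66), Ambp (0.64), Hp (0.60), Leprot (0.58) and Fetub (0.58). Ambp encodes the precursor of alpha-1-microglobulin and bikunin, and Fetub encodes fetuin-B, both secreted by the liver. In pools their rho with Alb was -0.05, -0.11, -0.07, -0.32 and 0.25. Leprot is no hepatocyte marker: its median was 51.0 CPM in spheroid captures and 35.0 CPM in nude liver captures. Without capture 30 the 5 values in captures ran from 0.56 to 0.63.

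The 250 bases before the RefSeq start of Alb, Hpx, Ambp and Fetub are shown because these transcripts were correlated across captures. Hp is named only. The sequences are from RefSeq on GRCm38.p6, written 5′ to 3′ on the gene's strand. Capitals mark GTTAAT, part of the recognition sequence of the hepatocyte factor HNF1, AGGTCA, the hexamer bound by many nuclear receptors, and the CCAAT box, each searched on both strands.
Alb, chr5:90460620-90460869, plus strand: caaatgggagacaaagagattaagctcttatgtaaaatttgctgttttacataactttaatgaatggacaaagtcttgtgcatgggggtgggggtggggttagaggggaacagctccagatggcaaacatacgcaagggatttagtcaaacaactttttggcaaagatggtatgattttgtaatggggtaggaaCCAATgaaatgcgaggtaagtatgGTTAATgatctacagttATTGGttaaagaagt
Hpx, chr7:105600117-105600366, minus strand: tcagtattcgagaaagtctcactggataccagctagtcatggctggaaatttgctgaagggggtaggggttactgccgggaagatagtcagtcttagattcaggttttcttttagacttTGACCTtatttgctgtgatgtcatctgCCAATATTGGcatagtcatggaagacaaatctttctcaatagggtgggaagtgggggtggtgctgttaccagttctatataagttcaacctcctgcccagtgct
Ambp, chr4:63154173-63154422, minus strand: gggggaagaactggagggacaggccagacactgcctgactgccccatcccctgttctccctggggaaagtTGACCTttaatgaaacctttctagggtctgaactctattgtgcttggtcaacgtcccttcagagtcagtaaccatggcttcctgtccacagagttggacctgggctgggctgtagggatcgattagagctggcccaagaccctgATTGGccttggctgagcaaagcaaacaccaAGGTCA
Fetub, chr16:22918132-22918381, plus strand: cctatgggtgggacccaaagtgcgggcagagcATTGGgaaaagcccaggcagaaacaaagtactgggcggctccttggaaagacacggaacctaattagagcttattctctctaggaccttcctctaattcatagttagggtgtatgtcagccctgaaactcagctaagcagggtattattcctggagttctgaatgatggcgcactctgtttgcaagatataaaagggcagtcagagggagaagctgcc
GTTAAT was found 1 time, in Alb, and is held by 6.4% of 32851 promoters of this length. AGGTCA was found 1 time in Hpx and 2 times in Ambp and is held by 14.0% of promoters. CCAAT was found in each of the 4, and in 33.8% of promoters, and the 2 matches in Hpx lie end to end on opposite strands. A match is a description of the letters and not of a bound site.

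**Figure D3:**
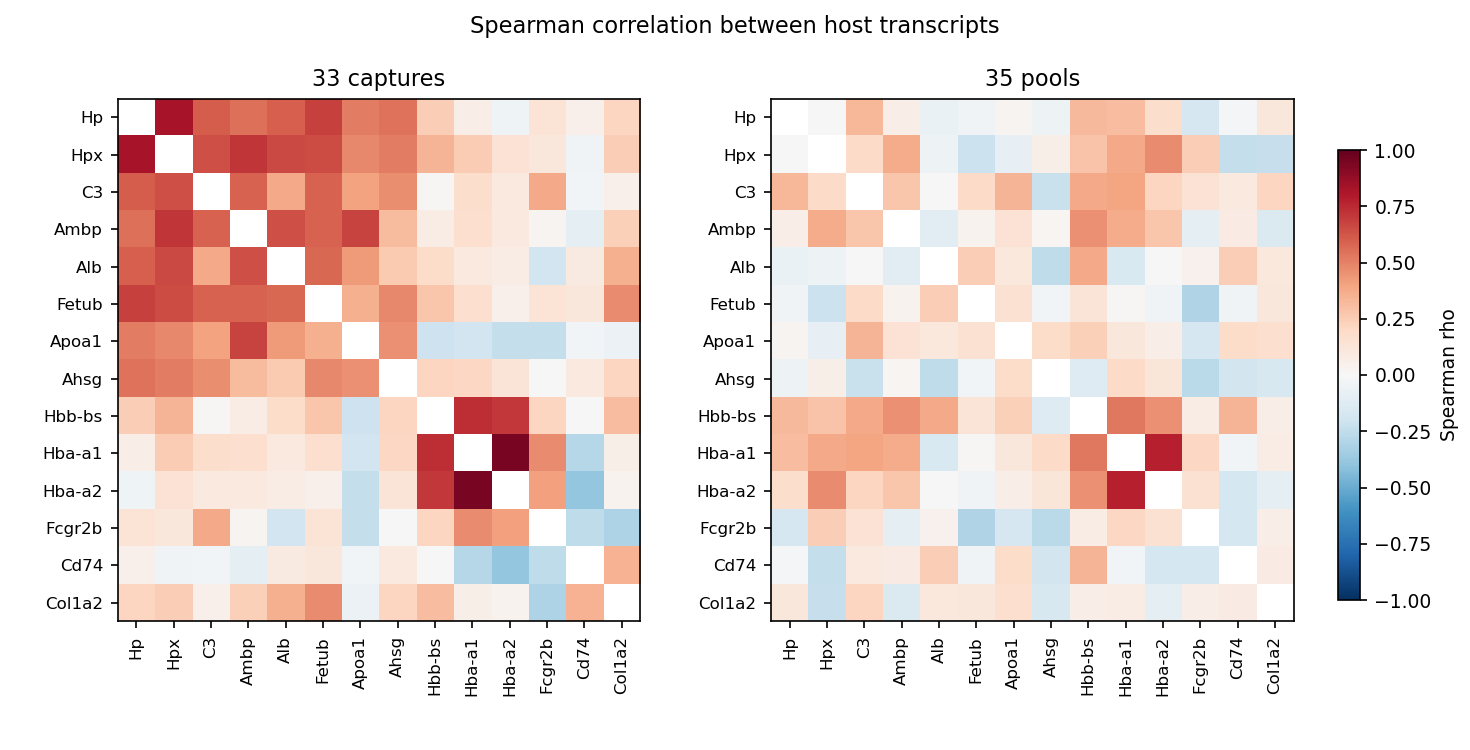
Spearman correlation (colour, from -1 in blue to 1 in red) between 14 host transcripts across 33 captures (left) and 35 pools (right). The 8 hepatocyte genes were chosen after their values were seen. Their rho ran from 0.27 to 0.83 in captures and from -0.26 to 0.37 in pools. Over the 20 tested genes of the hepatocyte list the median rho was 0.32 in captures and 0.10 in pools. The 3 globin genes drawn are correlated in both groups, and Hbb-bt is not drawn.

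The globin transcripts Hbb-bs, Hba-a1 and Hba-a2 were present in every pool and ranged down to 0 in captures. Pools 26, 27, 28 and 29 stood apart, with erythrocyte sums from 5717 to 9366 CPM, beside at most 3189 CPM in the other 31 pools and 3750 CPM in captures. Hbb-bs, an adult beta globin, ranged from 0 to 1706 CPM in captures with a median of 140 and from 1.91 to 2916 CPM in pools with a median of 475. Hba-a1, an alpha globin, ranged from 0 to 1357 CPM with a median of 120 in captures and from 62.0 to 3285 CPM with a median of 320 in pools. For Hba-a1, 13 captures lay below the lowest pool and none above the highest. The differences in spread were 1.34 ± 0.44 for Hbb-bs, 1.21 ± 0.35 for Hba-a1 and 1.07 ± 0.32 for Hba-a2, and none passed the adjustment (limma adjusted p = 0.138, 0.084 and 0.0886). Their log2 fold changes of mean level were -1.20, -1.12 and -1.42 and did not pass either. Without pools 26 to 29 the mean of Hbb-bs in pools went from 607 to 424 CPM, that of Hba-a1 from 597 to 369 CPM and that of Hba-a2 from 718 to 403 CPM, beside 315, 319 and 312 CPM in captures. The SD of the log2 erythrocyte sum in pools went from 1.19 to 0.85, beside 2.02 in captures. Of the 10 erythrocyte genes, 6 passed the level filter and 0 were called, beside 0.543% and 0.181% of all genes, a count too small to read. Hbb-bt, the other adult beta globin, had counts in 15 captures and 20 pools.

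Hbb-bs was correlated with Hba-a1 at rho 0.74 and with Hba-a2 at 0.70 in captures, and at 0.52 and 0.45 in pools. Over all 6 tested erythrocyte genes the median rho was 0.09 in captures and 0.11 in pools. Bpgm, an enzyme of red cell glycolysis, had rho -0.32 with Hbb-bs and -0.50 with Hba-a1 in captures, and 0.23 and 0.11 in pools. Hba-a1 and Hba-a2 are near-identical copies whose reads the counting may have split. Their promoters are identical over 247 of 247 aligned bases. The RefSeq sequence of Hba-a1 is shown with GATAAG, the motif of GATA factors, and CCAAT in capitals.
Hba-a1, chr11:32283422-32283671, plus strand: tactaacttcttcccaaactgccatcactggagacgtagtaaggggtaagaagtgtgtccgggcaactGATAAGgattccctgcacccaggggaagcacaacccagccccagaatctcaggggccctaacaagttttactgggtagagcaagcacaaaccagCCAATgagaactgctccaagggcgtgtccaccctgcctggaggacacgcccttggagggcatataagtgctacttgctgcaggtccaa
GATAAG is held by 6.5% of promoters of this length.

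Globin and hepatocyte transcripts were weakly correlated across captures. Between the 8 hepatocyte genes and the 3 globin genes, the 24 pairs had rho from -0.24 to 0.34 in captures with a median of 0.12. In pools they had rho from -0.15 to 0.48 with a median of 0.23. Capture 33 held 2318 CPM of Hpx and 1236 CPM of Hp with no count of Hbb-bs. Capture 5 held 380 CPM of Hbb-bs and 908 CPM of Hba-a2 with no count of Alb, Hpx, Hp or C3. Between the summed lists, rho was 0.26 and r was 0.18 in captures (adjusted permutation p = 0.382 and 0.551). In pools rho was 0.30 and r was 0.51 (adjusted permutation p = 0.261 and 0.0234), and r was 0.27 without the 2 libraries farthest from the median.

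Stellate and fibroblast transcripts were high in a few captures. The stellate and fibroblast sum reached 2588 CPM in capture 35 and 1901 CPM in capture 15, beside a median of 267 CPM. The SD of the log2 sum was 1.14 in captures and 1.26 in pools. Of 15 stellate and fibroblast genes, 8 passed the level filter and 0 were called, beside 0.543% and 0.181% of all genes. Colec11, a collectin of liver tissue, had counts in 10 captures and in 1 pool. It reached 2484 CPM in capture 35 and 1.30 CPM in that pool, and its difference in spread of 0.84 ± 0.42 did not pass (limma adjusted p = 0.342). Col3a1, a fibrillar collagen, had counts in 10 captures, up to 532.5 CPM, and in 3 pools, up to 6.50 CPM. The 8 tested genes covaried within captures, with a median rho of 0.31 in captures and 0.03 in pools, and of 0.30 and 0.07 with the ERCC share held constant.

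Of 20 macrophage and MHC class II genes, 9 passed the filter and 0 were called, beside 0.543% and 0.181% of all genes. Cd74, the MHC class II invariant chain, ranged from 0 to 227 CPM in captures and from 0 to 146 CPM in pools, with counts in 20 captures and 21 pools. Clec4f, which marks Kupffer cells, had counts in 11 captures and 6 pools. The median rho within the list was 0.34 in captures and 0.20 in pools. The macrophage and MHC class II sum reached 319 CPM in captures and 824.5 CPM in pools, with 3 pools above the highest capture, and the SD of its log2 was 2.15 in captures and 2.41 in pools. The gene Coro1a, an actin regulator of leukocytes outside the lists and chosen after its values were seen, had counts in 20 captures and 13 pools. Its spread was larger by 1.21 ± 0.28 in captures (limma adjusted p = 0.0208). The difference was -0.14 with deviations divided by the trend of spread on level, and with the ERCC share as a covariate the call was lost (limma adjusted p = 0.271). The neutrophil and platelet list had no member over the filter and the lymphocyte list had 2, Cd79a and Ms4a1, neither of which was called.

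Of 18 endothelial genes, 7 passed the filter and 0 were called, beside 0.543% and 0.181% of all genes. The SD of the log2 sum was 1.95 in captures and 1.498 in pools, and the highest sum, 1975 CPM in capture 32, held 1827 CPM of Fcgr2b. The sum was correlated with the spike-in share in both groups, with rho 0.60 in captures and 0.58 in pools (adjusted permutation p = 0.014 for each) and r 0.30 and 0.47 (adjusted permutation p = 0.227 and 0.0234). Fcgr2b, a receptor for immunoglobulin G carried by sinusoidal endothelium, ranged from 0 to 1827 CPM in captures with a median of 33.1. In pools it ranged from 10.3 to 940 CPM with a median of 96.3, and 13 captures lay below the lowest pool. Its difference in spread of 1.15 ± 0.31 missed the threshold (limma adjusted p = 0.055). Fcgr2b was correlated with the spike-in share in both groups, with rho 0.57 in captures and 0.59 in pools, and it had counts in 15 of 28 spheroid captures, up to 34.3 CPM. The defining marker Cdh5 had counts in 1 capture, at 1.19 CPM, and in 0 pools, and Pecam1 had a median of 5.94 CPM in captures and 6.75 CPM in pools. Among 13 alveolar and club cell genes, 3 passed the filter and 0 were called, beside 0.543% and 0.181% of all genes. Sftpa1, Scgb1a1, Scgb3a2, Hopx and Cldn18 were at 0 in all 33 captures and all 35 pools. Sftpc, the alveolar surfactant protein C, had counts in 25 captures, up to 77.5 CPM, and in 14 pools, up to 174 CPM. The alveolar and club cell sum had a median of 83.3 CPM in captures and 56.2 CPM in pools, and reached 468 CPM in captures and 1349 CPM in pool 21.

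Neuroendocrine transcripts, with 1 exception, were not called as more spread in captures. Of 25 listed genes, 20 passed the filter, 1 was called as more spread in captures and 0 as less spread, beside 0.543% and 0.181% of all genes. The difference was above 0 for 3 of the 20, and its median was -0.23. Calca, which encodes calcitonin and CGRP, was the 1 called. It ranged from 0 to 233 CPM in captures with a median of 4.48 and from 0 to 31.5 CPM in pools with a median of 0.25. Of the captures, 5 lay above the highest pool, and the spread was larger by 1.12 ± 0.28 (limma adjusted p = 0.0328). The call was lost when capture 2, 8 or 16 was left out (highest limma adjusted p = 0.0549), with the ERCC share as a covariate (limma adjusted p = 0.126) and without libraries of at least 5% ERCC (limma adjusted p = 0.456).

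Chga, chromogranin A of secretory granules, ranged from 9.75 to 1628 CPM in captures with a median of 265 and from 0 to 1251 CPM in pools with a median of 203. Ddc, aromatic amino acid decarboxylase, ranged from 116 to 1891 CPM in captures and from 6.78 to 1579 CPM in pools, with a difference in spread of -0.53 ± 0.27. Stmn3, Syt1 and Ncam1 had differences of -0.85, -0.79 and -0.51, and none passed. The summed list ran from 867 to 5619 CPM in captures and from 888 to 4171 CPM in pools, with an SD of the log2 sum of 0.50 and 0.60. Capture 25 was highest and capture 35 lowest.

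Neuroendocrine genes covaried little. The median rho over 190 pairs was 0.15 in captures and 0.11 in pools, and 0.08 and 0.09 with the ERCC share held constant. Chga was correlated above 0.5 with 63 genes in captures and 82 in pools, 2 of them shared. The most like it in captures were Ndufs4 (0.68), Tuba1b (0.68), Opa3 (0.67), Cox7c (0.64) and Mdh1 (0.61), which include 2 respiratory chain subunits and malate dehydrogenase.

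The genes of Notch signalling and non-neuroendocrine state gave no call in 6 tested of 15, beside 0.543% and 0.181% of all genes. Vim, an intermediate filament of mesenchymal cells, had counts in 27 captures and 18 pools and a difference of 0.63 ± 0.39 (limma adjusted p = 0.474).

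**Figure D4:**
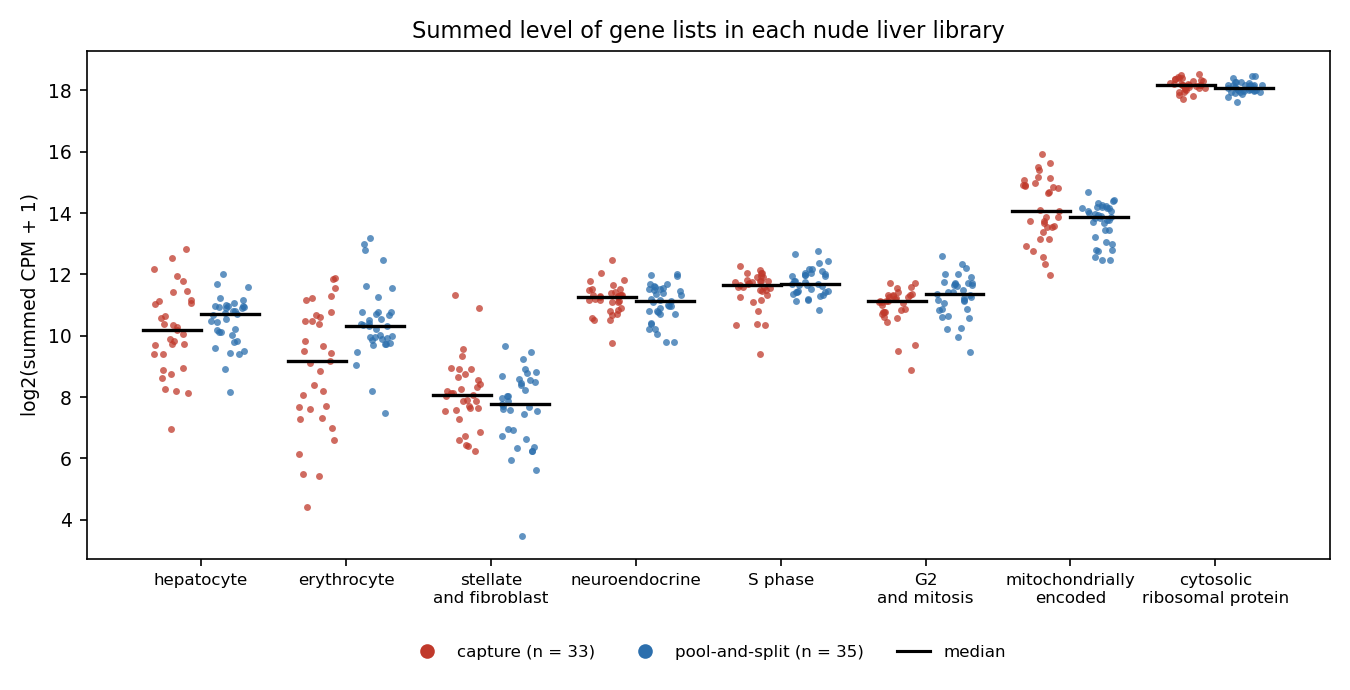
Summed level of 8 gene lists, as log2(summed CPM + 1), in each of 33 captures (red) and 35 pools (blue), with the median as a black bar. The hepatocyte, erythrocyte and mitochondrially encoded sums spread more between captures (SD 1.38, 2.02 and 1.03) than between pools (0.80, 1.19 and 0.62), as does the S phase sum (0.62 and 0.44), and the neuroendocrine sum does not (0.50 and 0.60).

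On the log2 scale the summed S phase genes spread more between captures than between pools, and the summed G2 and mitosis genes did not. The SD of the log2 sum was 0.62 in captures and 0.44 in pools for S phase, and 0.61 and 0.68 for G2 and mitosis. In CPM the SD of the S phase sum was 1003 in captures and 1171 in pools. These SDs were not tested. For S phase, captures 5, 10, 27, 30 and 35 lay below the lowest pool, and 4 pools lay above the highest capture. Captures 5, 30 and 35 were the 3 captures with at least 5% ERCC counts. For G2 and mitosis, 1 capture lay below the lowest pool and 10 pools above the highest capture. All 23 S phase genes and 23 of 24 G2 and mitosis genes passed the level filter, and 0 were called in either direction, beside 0.543% and 0.181% of all genes, a share near that background. The median difference was -0.22 in S phase and -0.25 in G2 and mitosis, beside -0.08 over all genes. Top2a, the topoisomerase that untangles replicated DNA, ranged from 13.4 to 526 CPM in captures with a median of 188 and from 5.63 to 1192 CPM in pools with a median of 153. Mki67, which coats mitotic chromosomes, ranged from 25.1 to 1574 CPM in captures and from 20.2 to 5681 CPM in pools. For both, the captures lay inside the range of the pools. Mcm6 of the replicative helicase ranged from 9.75 to 1830 CPM in captures and from 53.3 to 4082 CPM in pools. Ccnb1 and Hells had the differences -0.75 ± 0.27 and -0.78 ± 0.24 (limma adjusted p = 0.169 and 0.101). Plk1, a mitotic kinase, went the other way with 1.13 ± 0.38 (limma adjusted p = 0.145), with counts in 19 captures and 11 pools.

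Median correlations within the cycle lists were higher in captures than in pools, at 0.26 and 0.08 for S phase and 0.25 and 0.10 for G2 and mitosis. With the ERCC share held constant the values were 0.09 and 0.06 for S phase and 0.10 and 0.09 for G2 and mitosis. The S phase sum fell with the ERCC share across captures (rho -0.53, r -0.48, adjusted permutation p = 0.0279 and 0.141), and so did the G2 and mitosis sum (rho -0.55, r -0.70, adjusted permutation p = 0.0223 and 0.0081). Without the 2 libraries farthest from the median the 2 values of r were -0.51 and -0.61. Across the 30 captures under 5% ERCC neither passed, with rho -0.38 and -0.48. Capture 30, with the highest ERCC share, had the lowest G2 and mitosis sum (475 CPM). In pools the rho values were 0.10 and 0.09. The S phase and G2 and mitosis sums were correlated across captures with r 0.69 (adjusted permutation p = 0.0081) and rho 0.44 (adjusted permutation p = 0.103), and r was 0.72 without the 2 farthest libraries. In pools r was 0.20 and rho 0.21, and with the ERCC share held constant rho was 0.22 in captures and 0.20 in pools. The difference in rho did not pass (adjusted permutation p = 0.805). Top2a was correlated above 0.5 with 178 genes in captures and 14 in pools. The most like it were Slc29a1, Fam114a2, Ets2, Tsen34 and Pdcd6, with rho from 0.68 to 0.70, and none is a cycle list member.

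**Figure D5:**
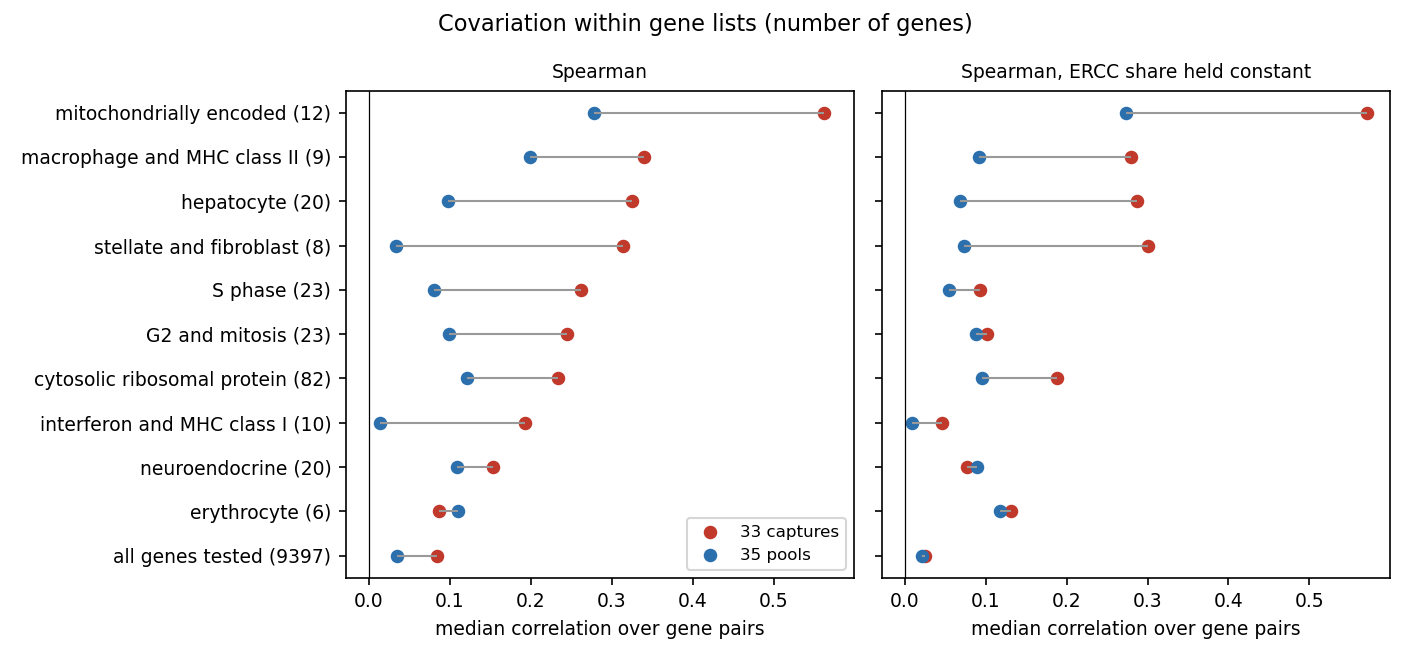
Median Spearman correlation over pairs of genes within 10 lists and over all genes tested, in 33 captures (red) and 35 pools (blue), without (left) and with (right) the ERCC share held constant. Hepatocyte, stellate and macrophage genes keep values of 0.28 to 0.30 in captures on the right, while S phase and G2 and mitosis genes fall to 0.09 and 0.10.

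Transcripts of mitochondrial DNA were closely correlated with each other. Their sum ran from 4038 to 61629 CPM in captures with a median of 17143 and from 5640 to 26583 CPM in pools with a median of 14867. Of the captures, 13 lay above the highest pool and 2 below the lowest. Within the 12 tested genes the median rho was 0.56 in captures and 0.28 in pools, and it was 0.57 and 0.27 with the ERCC share held constant. No single gene was called for spread (limma) or for mean level (edgeR), and the smallest adjusted p for mean level was that of mt-Nd3 (log2 fold change 0.98 ± 0.30, edgeR adjusted p = 0.0783). mt-Co3, a subunit of cytochrome c oxidase, ranged from 1584 to 25249 CPM in captures and from 1515 to 17027 CPM in pools. Across captures the mitochondrial sum had rho -0.51 with the erythrocyte sum, -0.54 with cytosolic ribosomal protein genes and 0.50 with the neuroendocrine sum. In pools the values were -0.01, -0.44 and 0.59. With the G2 and mitosis sum it was 0.51 in captures and 0.41 in pools, and with the S phase sum 0.43 and -0.20.

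Cytosolic ribosomal protein genes had a low spread in both groups. The 82 tested had a median of 0.45 in captures and 0.46 in pools, and 0 were called, beside 0.543% and 0.181% of all genes. For mean level edgeR called 2 of 82 as higher and 2 as lower in captures, beside 0.333% and 0.921% of all genes. Their sum fell as the cycle sums rose across captures, with rho -0.53 and r -0.56 for S phase (adjusted permutation p = 0.0279 and 0.0205). For G2 and mitosis rho was -0.57 and r was -0.46 (adjusted permutation p = 0.0201 and 0.0701). Both signs reversed when a list was scored as the mean of its members on the log scale, to 0.71 and 0.53. Of 45 pairs among the list sums and the ERCC share, 5 passed the adjustment by rho in captures and 1 in pools. These 2 ribosomal pairs were the only pairs of lists among the 5, and the other 3, like the 1 in pools, paired a list with the ERCC share. No pair differed between captures and pools after adjustment. The smallest adjusted permutation p of a difference was 0.121, for stellate with ribosomal protein genes (rho -0.34 in captures and 0.43 in pools). The neuroendocrine and S phase sums had r 0.56 and rho 0.44 in captures (adjusted permutation p = 0.0207 and 0.103) and r -0.20 and rho -0.12 in pools (adjusted permutation p = 0.489 and 0.713). Without the 2 farthest libraries r in captures was 0.41, and the difference in rho did not pass (adjusted permutation p = 0.341).

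Interferon-response and MHC class I genes gave no call among 10 tested of 20, beside 0.543% and 0.181% of all genes. H2-K1, a class I heavy chain, ranged from 0 to 1952 CPM in captures with a median of 32.5 and from 0 to 337 CPM in pools with a median of 5.27. Its spread was 2.55 in captures and 2.69 in pools. Outside the list, the interferon-induced Ifi27l2a had counts in 20 captures, up to 118 CPM, and 7 pools, up to 56.8 CPM. Its spread was larger by 1.48 ± 0.37 in captures (limma adjusted p = 0.0314), but the difference was -0.079 with deviations divided by the trend of spread on level. This call was lost without capture 2, 8, 13 or 14 (highest limma adjusted p = 0.0549) and without libraries of at least 20% ERCC (limma adjusted p = 0.0534).

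Mean levels differed for few genes. Of 6300 genes tested with edgeR, 79 (1.25%) were called, 21 (0.333%) higher and 58 (0.921%) lower in captures, and the median log2 fold change was -0.23. Without libraries of at least 5% ERCC 1 of the 21 and 8 of the 58 were still called, and with the ERCC share as a covariate 16 of the 21 and 5 of the 58 were. None of 13 hepatocyte, 6 erythrocyte or 18 neuroendocrine genes tested was called. Stmn1, a microtubule destabiliser named after its values were seen, ranged from 360 to 4617 CPM in captures with a median of 2232 and from 783 to 7202 CPM in pools with a median of 4062. It fell by 0.88 ± 0.17 (edgeR adjusted p = 0.0024). Aurka, a mitotic kinase, was the only gene called among the S phase and G2 and mitosis lists. It fell by 1.74 ± 0.49 (edgeR adjusted p = 0.0471), and the call was lost in 37 of 68 fits that left out 1 library.

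Several of the strongest calls rested on 1 library. Crybg3 reached 9399 CPM in capture 32, beside a median of 3.27 CPM in captures and 2.18 CPM in pools, and without that capture its edgeR adjusted p was 0.572. Ndufb2, a subunit of complex I, reached 16663 CPM in capture 30 beside a median of 126 CPM, and without it the edgeR adjusted p was 0.831. Pus10 without capture 32, Cdh4 without pool 22 and Paip2b without pool 21 also lost the call (edgeR adjusted p = 0.0702, 0.0584 and 0.0686). Amn1 and Fadd, an adaptor of death receptors, were lower in captures with log2 fold changes of -4.08 ± 0.73 and -4.64 ± 0.85 (edgeR adjusted p = 0.00135 for both). Their medians were 5.73 CPM in captures and 7.97 CPM in pools for Amn1, and 5.67 and 6.15 CPM for Fadd. The highest pools reached 4820 and 6489 CPM.

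The excess of spread in captures over pools was also compared with that in other environments. Against spheroids, limma called 3 of 9422 genes (0.0318%), of which Ifi27l2a had an excess larger by 2.31 ± 0.51 in nude liver (limma adjusted p = 0.0453). This call was lost with a pseudocount of 5, with squared deviations and without libraries of at least 5% or at least 20% ERCC (limma adjusted p from 0.109 to 0.286). In spheroids it had counts in 3 of 28 captures and 6 of 20 pools. Against colonies in F1 mice, whose parent strains the labels do not give, limma called 10 of 9417 genes (0.106%), and 9 had a larger excess in nude liver. C3 differed by 3.04 ± 0.72 (limma adjusted p = 0.0399). Its spread in F1 liver was 1.93 in captures and 3.17 in pools, the opposite order to nude liver. Mup7, a major urinary protein of hepatocytes, differed by -2.56 ± 0.45 (limma adjusted p = 0.000788). It had counts in 2 nude liver captures and 2 nude liver pools, against 19 of 31 F1 captures and 6 of 24 F1 pools. The other 8 genes were Gm15807, Gm17555, Gm7416, Cdk15, Crb1-ps, AL590629.2, Fcgr2b and Mylk4. Each was correlated with the spike-in share, with rho from 0.40 to 0.66 in nude liver captures and from 0.26 to 0.59 in nude liver pools. Without libraries of at least 5% ERCC none of the 10 calls was shared, the count became 211 larger and 0 smaller, and the difference for C3 became -0.74.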

How the data were processed

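The values are expected counts per gene as deposited, in a table of 31581 genes and 92 ERCC transcripts; RSEM, Bowtie2, GRCm38 and GRCh38.p12 are named per the submitters' processing notes, with no version or role. Of all values 89.3% were whole. Counts were rounded for edgeR, and ERCC transcripts entered neither library sizes nor tests. No library pair agreed within sampling noise (lowest chi-square per degree of freedom 74.93). Mean level was tested with edgeR 4.0.16 (TMM, filterByExpr, robust quasi-likelihood). Spread was tested with limma 3.58.1 on the distance of each library from its group's median on the log2(CPM + 1) scale, corrected for the number of libraries, for genes averaging 5 CPM or more. The comparison with other environments used an interaction term in limma. Adjusted p-values are Benjamini-Hochberg values, over all genes tested in edgeR and limma, over 5 library measures, and over the 45 pairs among list scores and the ERCC share (both groups together for the correlations). List scores were log2 of summed CPM + 1, and permutation tests drew 100000 resamples, two-sided, with a smallest p of 1e-05 (SciPy 1.17.1, NumPy 2.4.6, pandas 2.3.3, Python 3.11.15, R 4.3.3). Both fits were run on simulated data, and the share of true differences they recovered is not reported here. A count of 0 called therefore does not show that spread was equal.

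The members and gene lists were chosen with earlier results of these data known. Genes named by rule were, for mean level, the 6 in each direction with the smallest adjusted p, a log2 fold change of at least 1 in size and 10 CPM or more in whichever group was higher. For spread they were the 12 more and 6 less spread genes with the smallest adjusted p. For each list they were its first 2 members and up to 4 (spread) and 2 (mean) with the smallest adjusted p. For excess spread they were 4 in each direction, and for each seed gene (Alb, Hbb-bs, Top2a and Chga) the 5 most correlated. Some genes that the rule names are not reported here. Other genes were chosen after their values were seen. Alternatives covered scaling, filters, pseudocounts, thinning, ERCC share, DESeq2 1.42.0 and leaving out each library. Leaving out libraries of at least 20% ERCC, partial correlations given the ERCC share, TMM sizes with a pseudocount of 5, and globin levels without the 4 pools with the highest erythrocyte sums were added after the data were seen.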

Additional observations from a re-analysis of the deposited data

Results flagged for a closer look

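The 13 results below were set apart because the excess of spread in captures over pools differed between nude liver and another environment in limma's interaction test (adjusted p under 0.05). Against spheroids the difference was 1.71 for Mettl5, 2.31 for Ifi27l2a and -2.28 for Pitpna (limma adjusted p = 0.0453 for each). Against F1 liver it was -2.56 for Mup7, 1.70 for Gm15807, 2.68 for Gm17555, 1.76 for Gm7416, 1.42 for Cdk15, 1.52 for Crb1-ps, 2.17 for AL590629.2, 2.22 for Fcgr2b, 1.49 for Mylk4 and 3.04 for C3 (limma adjusted p from 0.000788 to 0.0399).

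Mettl5 had counts in 18 captures and 6 pools of nude liver, and in 24 captures and 19 pools of spheroids. Pitpna had a spread of 1.29 in captures and 2.76 in pools of nude liver, and of 1.38 and 0.57 in spheroids. Gm17555 had a mean of 161 CPM in captures and 257 CPM in pools of nude liver, and of 5.73 and 99.0 CPM in F1 liver.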

How the results depend on the processing

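For mean level the main counts of 21 higher and 58 lower genes became 2200 and 2378 with no filter, 254 and 446 with a filter at a mean of 5 CPM, and 102 and 103 with DESeq2. Thinning left 12 lower genes, and an ERCC covariate gave 54 higher and 78 lower. Without libraries of at least 5% ERCC there were 25 and 39, of which 1 and 8 were shared. The counts of 51 more and 17 less spread genes became 6 and 2 with a pseudocount of 5, 0 and 1 with 20 (443 and 449 at an unadjusted p under 0.05, limma), and 2 and 2 with a filter at 20 CPM. They became 3 and 3 with squared deviations, 510 and 612 with deviations divided by the trend of spread on level, 3 and 5 with TMM sizes and a pseudocount of 5, and 196 and 1 with an ERCC covariate. TMM sizes alone gave 30 more spread, and leaving out libraries of at least 20% ERCC gave 10 less spread. Without libraries of at least 5% ERCC limma called 0 and 0 (330 and 388 at an unadjusted p under 0.05). Leaving out 1 library gave 16 to 29 higher, 45 to 69 lower, 40 to 66 more spread and 7 to 51 less spread genes.

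Excess spread against spheroids (2 larger, 1 smaller) became 1 larger with a pseudocount of 5, and 0 larger without libraries of at least 5% ERCC (316 at an unadjusted p under 0.05, limma). It became 0 and 0 with a filter at 20 CPM (85 and 716 at an unadjusted p under 0.05), with squared deviations (203 and 684) and without libraries of at least 20% ERCC (412 and 730), all in limma. Against F1 liver the 9 larger became 4, 4 and 5 with a pseudocount of 5, the 20 CPM filter and squared deviations. Without libraries of at least 5% ERCC there were 211 larger and 0 smaller (870 and 336 at an unadjusted p under 0.05, limma), and without those of at least 20% there were 2 smaller. The pseudogene difference passed without libraries of at least 20% ERCC (0.617 percentage points, adjusted permutation p = 0.00804). Correlated pairs among list scores and the ERCC share, 5 in captures and 1 in pools, became 16 and 28 with scores averaged over members, 1 and 0 under 5% ERCC, and 3 and 0 under 20%.

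Signs reversed for Crybg3 with DESeq2 (-0.016). With deviations divided by the trend they reversed for Zfx (-0.24), Acadl (-0.16), Chpf2 (-0.10), Plagl2 (-0.10), Cklf (-0.041), Fam103a1 (-0.26), Ccnh (-0.17), Bhmt (-0.082), Ms4a1 (-0.95), Coro1a (-0.14) and Ifi27l2a (-0.079). Without libraries of at least 5% ERCC they reversed for the F1 excess of C3 (-0.74) and Mup7 (0.073). With scores averaged over members, rho reversed for hepatocyte with neuroendocrine (0.52) and neuroendocrine with S phase (0.54) in pools, and for S phase (0.71) and G2 and mitosis (0.53) with ribosomal genes in captures. The cause was not tested.

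Replicate numbers shared by the groups did not pair the libraries: over 31 shared numbers the correlation of deviations ran from -0.15 to 0.12, with 2 over 0.1, and 1 capture correlated best with its own number. With the replicate number as a block, edgeR called 2 higher and 0 lower genes (735 and 189 at an unadjusted p under 0.05), and limma called 47 more and 10 less spread. Values below a few CPM rest on few counts, and 10 cells and poly(A) PCR leave many transcripts undetected.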

Other observations

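Genes of hypoxia and glycolysis gave no call among 15 tested of 19, beside 0.543% and 0.181% of all genes. Their sum ran from 3212 to 15835 CPM in captures and from 3513 to 12253 CPM in pools, and 6 captures lay above the highest pool. Of 12 genes of the unfolded protein response, 8 were tested and 0 called (limma), beside the same shares. Nuclear genes of the respiratory chain had a median difference in spread of -0.31 over 70 tested, with 0 called, beside the same shares. Of the 70, 13 were less spread in captures at an unadjusted p under 0.05 (limma), beside 773 of 9397 over all genes. Capture 35 had the highest stellate and fibroblast sum and the lowest neuroendocrine and S phase sums of the 68 libraries. Capture 23 had the highest mitochondrially encoded sum and the lowest erythrocyte and endothelial sums.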
